A study of Arabidopsis thaliana with 2 samples.

Results

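The genes described here are 10 Arabidopsis thaliana loci that carry out fermentation or respond to low oxygen in plants. They were taken by locus name from the gene column of both arrays, as ADH1, PDC1, PDC2, LDH1, SUS1, SUS4, ALAAT1, PGB1, LBD41 and HRA1. They are 10 of the 25665 loci named on the array, and each is read by 1 spot per array. All 10 are among the 19059 genes that passed the filter on dim and outlier spots, and each was well above background in both genotypes on both arrays. The set was chosen by the sgr1 over wild type ratios of these same arrays, which were known when the genes were picked. Their ratios are therefore a description, without a test.

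When oxygen limits respiration, plant cells make ATP by glycolysis and recycle its cofactor by fermentation. Pyruvate decarboxylase (PDC) and alcohol dehydrogenase (ADH) turn pyruvate into ethanol, and lactate dehydrogenase (LDH) turns it into lactate. Sucrose synthases (SUS) open sucrose at a low energy cost, alanine aminotransferase (ALAAT) moves pyruvate into alanine and back, and phytoglobin 1 (PGB1) removes nitric oxide. Many of these genes are switched on by group VII ERF transcription factors, which are broken down in the presence of oxygen after plant cysteine oxidases (PCO) have oxidised their N-terminus. LBD41 and HRA1 are transcription factors induced in the same response, and HRA1 restrains the ERF RAP2.12.

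The arrays compared inflorescence stems of sgr1 with those of wild type (Columbia). The sgr1 mutant carries a lesion in SCARECROW (SCR), a GRAS transcription factor needed to form the endodermis; the labels name no allele. Plants of both genotypes stood in constant white light at 23 °C, and no low oxygen treatment is named in the labels. For both arrays the labels also give 3 days of cold and 10 days on plates. Segments of 1.5 cm were taken 0.3 to 1.8 cm below the apex of primary stems 5 to 8 cm tall, without lateral organs, from at least 10 plants per RNA sample. There were 2 two-colour arrays on 1 slide. Array 1 had Cy3 on sgr1 RNA and Cy5 on wild type RNA, and array 2 had the opposite dyes. The labels speak of 2 biological replicates in one place and of replicate 1 of 1 in another, so the spread between arrays may be technical.

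Between 59.2% and 66.5% of the spots that were not controls were well above background in each channel, and no spot was saturated. All 5 stem markers (KNAT1, CER6, IRX3, NST1 and AUX1) were measured. Of the 4 floral organ genes AP3, PI and AG were too dim to enter the comparison, and SEP3 was measured. SCR itself had log2 ratios of -0.81 and -1.16 on arrays 1 and 2, a 1.98-fold fall. Where its probe lies relative to the lesion is not known, so this value is no firm check of the genotype. The mean log2 ratio of all genes had a median of 0.005. In bulk stems, fewer cells of a type and less RNA per cell cannot be told apart.

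Signals below are in arbitrary units after loess and Aquantile normalization, given for array 1 and then array 2. Ratios are log2 of sgr1 over wild type, as mean ± SD over both arrays (n = 2). Signals of different probes were not set against each other.

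Of the 10 genes, 8 were lower in sgr1 on both arrays, against 33.7% of all genes measured. PDC2 was higher in sgr1 on both, and ALAAT1 differed in direction between arrays. The sgr1 and wild type signals did not overlap in the 8 lower genes. That was so for 29.7% of all genes measured, and signals did not overlap in either direction for 59.3%. Among the 10 genes ALAAT1 alone overlapped. A difference of at least 2-fold on both arrays was present in 3 of the 10, all lower in sgr1 (LBD41, HRA1 and PDC1), against 0.75% of all genes measured. None was at least 2-fold higher on both, against 0.777% of all genes. The median ratio of the 10 genes was -0.67, with -0.54 on array 1 and -0.78 on array 2. Since the ratios were known when the genes were picked, these counts support nothing further.

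**Figure D1:**
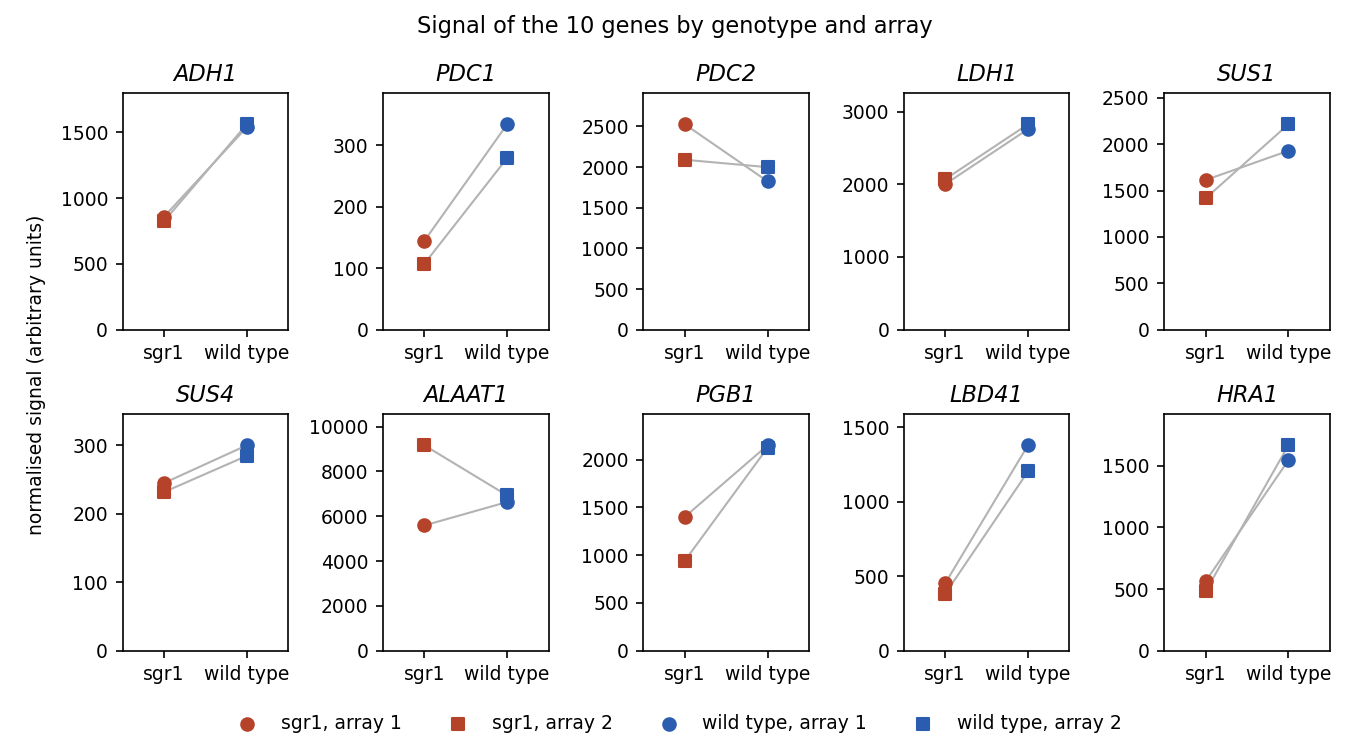
Normalised signal (arbitrary units, axes from 0, a separate scale for each gene) of the 10 genes in sgr1 (left) and wild type (right) on array 1 (circles) and array 2 (squares), with lines joining the genotypes of an array. In 8 panels both lines climb towards wild type, in PDC2 both descend, and in ALAAT1 they run in opposite directions.

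ADH1 (AT1G77120) encodes the alcohol dehydrogenase that reduces acetaldehyde to ethanol. Its signal was 857 and 823 in sgr1 stems, against 1538 and 1560 in wild type stems. Both sgr1 values lay clearly under both wild type values, and the arrays were close within a genotype after normalization between them. The gene was 1.84-fold lower in sgr1 (-0.88 ± 0.0552).

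The pyruvate decarboxylases, which feed acetaldehyde to ADH, did not behave alike. PDC1 (AT4G33070), the isoform known for its induction by low oxygen, had signals of 145 and 107 in sgr1 stems, against 334 and 279 in wild type stems. It was 2.45-fold lower in sgr1 (-1.29 ± 0.121). PDC1 was the dimmest of the 10 relative to its surroundings: its weakest spot was 1.62 times its local background. An offset added in the background correction pulls ratios of dim spots towards 0. With the log ratios of the scanner software, which differ in background subtraction, offset and dye normalization, PDC1 stood at -2.37 and -2.28 on the arrays, a 4.99-fold difference.

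PDC2 (AT5G54960), an isoform with the same activity, had signals of 2525 and 2089 in sgr1 stems, against 1824 and 1998 in wild type stems. Its sgr1 values were the higher ones on both arrays, but array 2 separated the genotypes little. The ratios were 0.47 on array 1 and 0.06 on array 2 (0.27 ± 0.287). Subtracting the ratio of PDC2 from that of PDC1 gave -1.68 on array 1 and -1.44 on array 2, so the isoforms stood apart on each array.

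LDH1 (AT4G17260), the lactate dehydrogenase, had signals of 2002 and 2070 in sgr1 stems, against 2759 and 2826 in wild type stems. It was 1.37-fold lower in sgr1, and its ratios, -0.46 and -0.45, were nearly equal.

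The sucrose synthases SUS1 and SUS4, close relatives that low oxygen induces, were lower by a small amount. SUS1 (AT5G20830) had signals of 1614 and 1416 in sgr1 stems, against 1929 and 2215 in wild type stems. The difference was larger on array 2 (-0.65) than on array 1 (-0.26), and the mean was 1.37-fold lower in sgr1 (-0.45 ± 0.275). SUS4 (AT3G43190) had signals of 245 and 231 in sgr1 stems, against 299.7 and 284 in wild type stems, 1.23-fold lower in sgr1 (-0.29 ± 0.00262). Its SD is small because ratios of -0.29 and -0.30 happened to fall together, and it is no measure of the gene's precision. Probe sequences were not used here, so how far the probes of SUS1 and SUS4, or those of the PDC genes, cross-react is not known.

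ALAAT1 (AT1G17290), an alanine aminotransferase, had signals of 5588 and 9163 in sgr1 stems, against 6633 and 6926 in wild type stems. Here the genotypes overlapped, as the sgr1 values lay on either side of wild type. Array 1 gave a ratio of -0.25 and array 2 one of 0.40 (0.08 ± 0.46), the widest gap between arrays among the 10. In dye terms, Cy5 exceeded Cy3 by 0.33 on the log2 scale in the mean of the arrays, the strongest dye difference in this direction among the 10. For the others that mean ran between -0.28 and 0.01.

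PGB1 (AT2G16060, HB1 in RefSeq), the class 1 phytoglobin, had signals of 1401 and 941 in sgr1 stems, against 2151 and 2126 in wild type stems. The wild type values were nearly the same, and the sgr1 values differed. PGB1 was 1.86-fold lower in sgr1 (-0.90 ± 0.394), with -0.62 on array 1 and -1.18 on array 2.

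The transcription factor genes showed the largest differences at this offset, though not with the scanner software's ratios, where PDC1 (-2.32) exceeded LBD41 (-1.85) and HRA1 (-1.79). LBD41 (AT3G02550), of the LATERAL ORGAN BOUNDARIES DOMAIN family, had signals of 452 and 382 in sgr1 stems, against 1380 and 1204 in wild type stems. It was 3.1-fold lower in sgr1 (-1.63 ± 0.0334). HRA1 (AT3G10040), a trihelix factor, had signals of 562 and 481 in sgr1 stems, against 1546 and 1667 in wild type stems. It was 3.09-fold lower in sgr1 (-1.63 ± 0.236). Both stood near the lower end of all genes measured, with 0.236% and 0.241% of genes at or below their ratios.

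In order of their ratios, the genes ran from LBD41 and HRA1 through PDC1, PGB1, ADH1, LDH1, SUS1, SUS4 and ALAAT1 to PDC2. Neighbours whose array values overlapped were LBD41 and HRA1, PGB1 and ADH1, LDH1 and SUS1, SUS1 and SUS4, and ALAAT1 and PDC2. PDC1 overlapped neither HRA1 before it nor PGB1 after it, and the values of ADH1 and LDH1, and of SUS4 and ALAAT1, were also separate. The place of PDC1 depended on the processing: with an offset of 16 its ratio was -1.64, beside -1.71 for HRA1 and -1.74 for LBD41, and with the scanner software's ratios it came first.

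**Figure D2:**
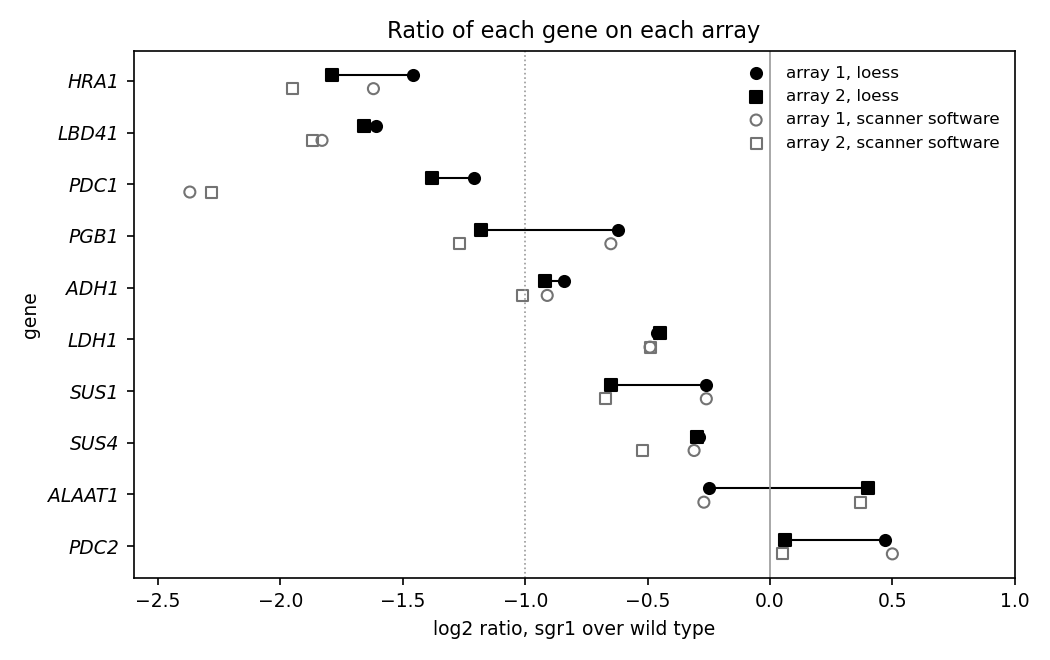
Log2 ratio of sgr1 over wild type (horizontal axis) of the 10 genes on array 1 (circles) and array 2 (squares), filled after loess normalization and open as computed by the scanner software. The dotted line marks a 2-fold difference at -1. LBD41, HRA1 and PDC1 lie beyond it on both arrays, and the open symbols of PDC1 reach -2.37.

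The wider low oxygen response was read from a list of 44 other genes known for their induction by low oxygen, none of them among the 10. The list was written from general knowledge of the response and not taken from a published table. Earlier results of these arrays were known when it was drawn up, so its counts and p-values are no independent support. Of its members 36 were measured and 8 were too dim. By limma with adjustment over all genes, 19 of the 36 fell and 1 rose. That is 52.8% lower, where 8.98% of all genes measured were called lower and 9.92% higher. The list had a median ratio of -0.39, made up of -0.38 on array 1 and -0.42 on array 2, and 10 of its genes were at least 2-fold lower on both arrays. ARD3 and FTM1 were already known from these arrays as strongly lower. Without them 17 of 34 fell, an alternative added after seeing the data. AT4G33560 and AT1G19530 entered only through wild type, since sgr1 was well above background on neither array, and AT4G33560 is 1 of the 19. Where both genotypes had to be above background, 16 genes of the list fell and 1 rose. FTM1 and CML38, with sgr1 well above background on 1 array, were also left out there. Log ratios of the scanner software (scanner log ratios) left 17 falls and no rise, and median centring in place of loess left 1 fall, that of ARD3, and 0 calls in the 6 pathway lists described next.

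The 6 largest falls in this list were those of ARD3, AT4G27450, FTM1, PCO1, PCO2 and AT1G33055. ARD3 (AT2G26400), an acireductone dioxygenase of the methionine salvage cycle, had ratios of -3.82 and -4.33 and was 16.9-fold lower in sgr1 (limma adjusted p = 5.28e-28). AT4G27450, which the array file describes as similar to an auxin down-regulated and an aluminum-induced protein, had -2.61 and -2.47, a 5.81-fold fall (limma adjusted p = 2.7e-20). FTM1 (AT1G43800), an acyl carrier protein desaturase, was 5.27-fold lower (-2.18 and -2.62, limma adjusted p = 4.66e-19), with a signal well above background in sgr1 on 1 array. On the other array FTM1 entered only through wild type. Its ratio ran from -4.43 to -2.39 over the alternative settings, so the size of its fall is uncertain. On this scale each of these 3 ratios was further from 0 than that of any of the 10 genes.

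AT1G33055, an expressed protein without further description in the array file, was 2.67-fold lower (-1.17 and -1.67, limma adjusted p = 3.54e-11). Its ratio ran from -2.91 to -1.41 over the alternative settings, so its place behind PCO1 and PCO2 depended on the processing. The gene that rose was AT3G23170, named after its values were seen. Its ratios were 0.85 and 0.11 (limma adjusted p = 0.0164), and it no longer passed with scanner log ratios, with median centring or without the filter on dim probes.

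**Figure D3:**
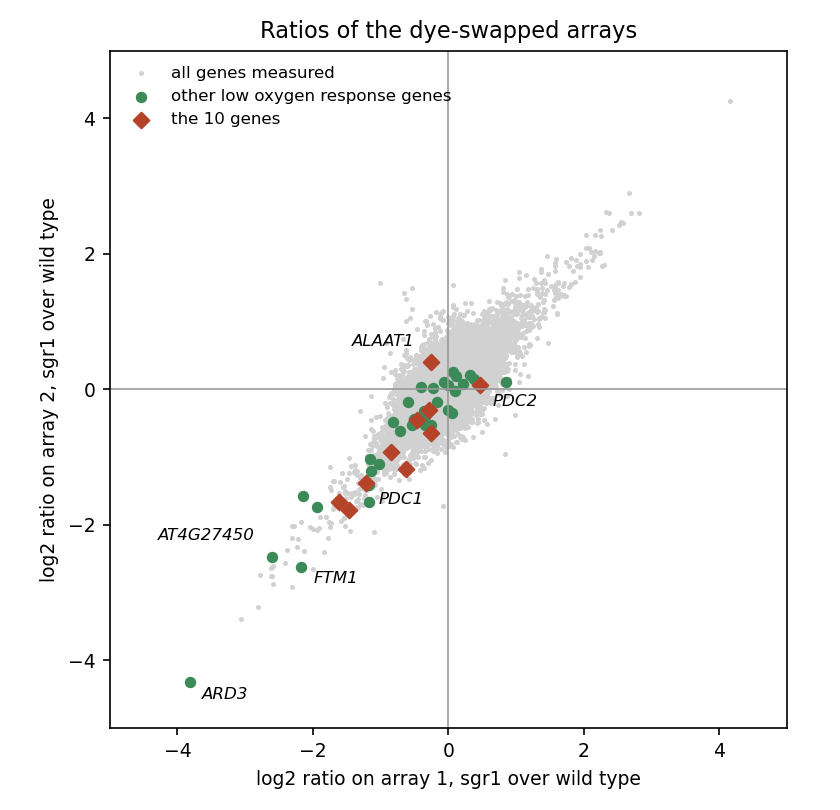
Log2 ratio of sgr1 over wild type on array 1 (horizontal) against array 2 (vertical) for all 19059 genes measured (grey), the other low oxygen response genes (green circles) and the 10 genes (red diamonds). ARD3 lies at -3.82 and -4.33, PDC1 among the low values on both axes, and PDC2 and ALAAT1 near 0.

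Of 15 listed oxygen sensing genes, which act upstream, 13 were measured, 2 fell and none rose (5 had an unadjusted p under 0.05 by limma). The 15.4% called is near the 18.9% of all genes measured, both after adjustment. No share of all genes was counted at the unadjusted threshold, so the 5 has nothing to be read against. The falls were of PCO1 (AT5G15120) and PCO2 (AT5G39890), the cysteine oxidases that low oxygen itself induces and which also stand in the list above. PCO1 was 3.61-fold lower in sgr1 (-2.14 and -1.57, limma adjusted p = 8.58e-15) and PCO2 3.57-fold lower (-1.94 and -1.74, limma adjusted p = 3.2e-15). The other oxidases, PCO3 (-0.04), PCO4 (0.20) and PCO5 (-0.06), did not pass. PCO3 was dim: for sgr1 as for wild type, just 1 of the arrays gave a signal clear of background. Its ratio ran from -0.08 to 0.29 over the alternative settings, so whether PCO3 changed cannot be told.

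Among the group VII ERFs, RAP2.2 (-0.21), RAP2.3 (-0.31) and HRE1 (0.02) did not pass. RAP2.12 was left out for an outlier spot and HRE2 was too dim. The array thus gives no value for these 2 factors. PRT6, ATE1 and ATE2, which mark and degrade the oxidised factors, had ratios of 0.17, 0.28 and 0.29 and did not pass; these 3 were named after their values were seen.

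Relatives of LBD41 in class II of its family repress genes of nitrate assimilation in the case of LBD37, LBD38 and LBD39. Of these 5 relatives 3 were measured and 1 was called, which is 33.3%, against 18.9% of all genes measured. LBD39 (AT4G37540) was 2.27-fold lower in sgr1, with ratios of -1.04 and -1.32 (limma adjusted p = 3.7e-09). LBD38 (-0.37) and LBD37 (0.20) did not pass, and LBD40 and LBD42 were too dim.

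A list of 14 relatives and companion enzymes of the 10 genes had 13 measured, of which 4 rose and 3 fell, with a median of 0.01. That is 53.8% called, against 18.9% of all genes measured, in both directions. Both other phytoglobins fell. PGB3 (AT4G32690) was 1.68-fold lower (-0.81 and -0.68, limma adjusted p = 5.34e-05) and PGB2 (AT3G10520) 1.54-fold lower (-0.41 and -0.84, limma adjusted p = 0.000879). PGB2 no longer passed with scanner log ratios.

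Nitrate reductases, a source of the nitric oxide that phytoglobins remove, went the opposite way. NIA1 (AT1G77760) was 2.17-fold higher in sgr1 (1.17 and 1.06, limma adjusted p = 1.24e-08) and NIA2 (AT1G37130) 1.98-fold higher (0.96 and 1.01, limma adjusted p = 2.28e-07). The other rises were those of peroxisomal aminotransferases that serve photorespiration. AOAT2 (AT1G70580) was 2.57-fold higher (1.41 and 1.32, limma adjusted p = 4.64e-11) and GGT1 (AT1G23310) 1.50-fold higher (0.63 and 0.54, limma adjusted p = 0.00139). GGT1 no longer passed with scanner log ratios.

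ALAAT2 (-0.20), the other alanine aminotransferase, did not pass, nor did PDC3 (-0.30), whose sgr1 signal was well above background on 1 array. PDC3 did pass as lower under 3 of 8 alternative settings, namely the smaller normexp offset, scanner log ratios and the alternative variance model. Its ratio ran from -0.97 to -0.22 over these 8 settings, so whether PDC3 fell cannot be told. PDC4 was too dim. ALDH2C4 (AT3G24503), an aldehyde dehydrogenase, was the third gene to fall (-0.38 and -0.64, limma adjusted p = 0.00664), a call that scanner log ratios ended.

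**Figure D4:**
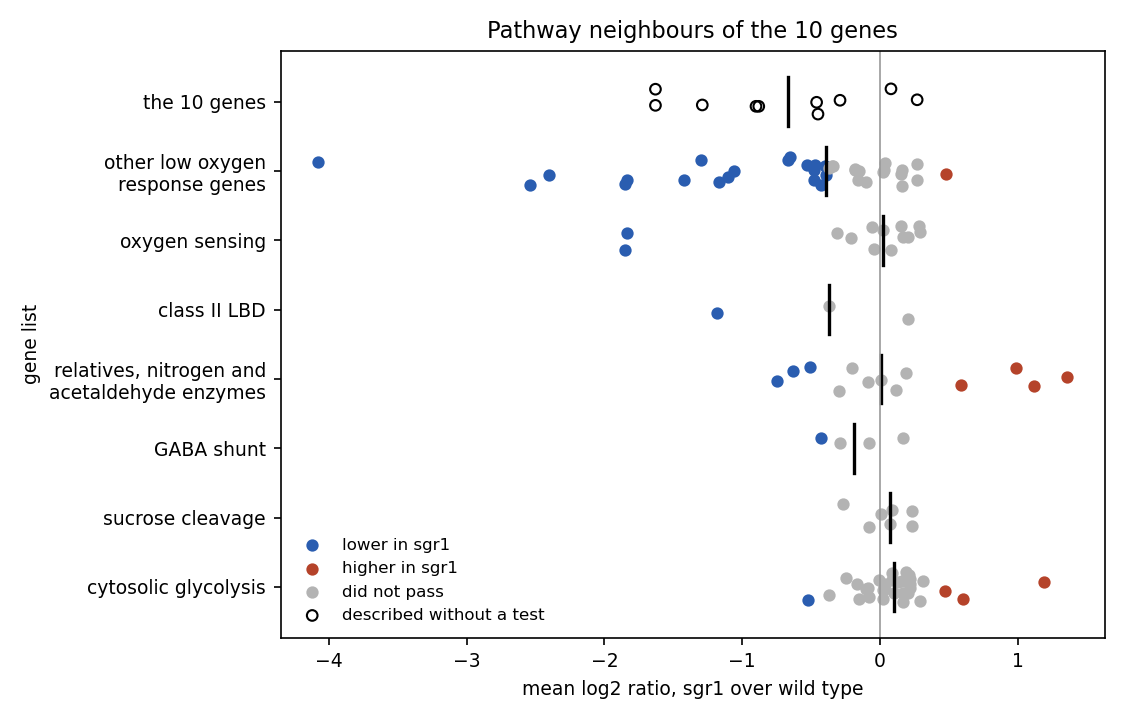
Mean log2 ratio of sgr1 over wild type (horizontal axis) for each measured gene of 8 lists (rows), with the median of each list as a black bar. Blue points fell, red points rose and grey points did not pass by limma, while the 10 genes (open circles, top row) carry no test. The low oxygen response genes reach down to -4.08, and the sucrose cleavage and glycolysis rows centre near 0 (medians 0.07 and 0.10).

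Genes that supply sugar to fermentation were read in a pair of lists. Of 8 further genes of sucrose cleavage 7 were measured and none passed by limma, nor had any an unadjusted p under 0.05. The share of all genes at that unadjusted threshold was not counted. They included SUS2 (-0.08), SUS5 (0.09) and SUS6 (0.01), and SUS3 was too dim. Of 35 genes of cytosolic glycolysis 33 were measured, 3 rose and 1 fell, with a median of 0.10. The 12.1% called compares with 18.9% of all genes, and whether these lists changed less than other genes was not tested. PPDK (AT4G15530), which interconverts pyruvate and phosphoenolpyruvate, was 2.29-fold higher (1.34 and 1.05, limma adjusted p = 2.77e-09).

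The other glycolytic calls were small, and scanner log ratios ended all 3. The non-phosphorylating dehydrogenase ALDH11A3 (0.82 and 0.38, limma adjusted p = 0.00148) and the phosphofructokinase PFK1 (0.43 and 0.52, limma adjusted p = 0.0115) rose. PFK3 (AT4G26270), another phosphofructokinase, fell (-0.44 and -0.60, limma adjusted p = 0.00525). Of 5 GABA shunt genes, which handle amino acid nitrogen beside ALAAT, 4 were measured and 1 was called. That is 25%, near the 18.9% of all genes measured. SSADH, a dehydrogenase of the shunt, fell (-0.24 and -0.62, limma adjusted p = 0.0255), and scanner log ratios ended this call too.

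Markers of cell types were read beside these results, and their part in them was not tested. Among all genes measured 9.92% were called higher and 8.98% lower. Of the 5 stem markers 3 rose, namely NST1 (0.78) and IRX3 (0.40), which act in secondary walls, and CER6 (0.53), which acts in the wax of the epidermis. IRX3 and CER6 no longer passed with scanner log ratios. KNAT1 (0.30) and AUX1 (-0.03) did not pass, and the list had a median of 0.40. Of 5 phloem genes, a tissue in which sucrose synthases act, SWEET12 rose (0.57) and none fell, while SUC2 (0.37), APL (0.02), SWEET11 (0.03) and SEOR1 (-0.25) did not pass. Of 4 endodermis genes SCR and EN7 fell (-0.99 and -0.66), PER64 rose (4.21) and CASP1 did not pass (-0.04). SWEET11 in wild type, and CASP1 in both genotypes, were well above background on only 1 array, so their ratios carry little weight.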

How the data were processed

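Both scanner files came from Agilent Feature Extraction 9.1.3.1, per the file headers. They hold the deposited intensity of each spot and of its local background per dye, and a log10 ratio (Cy5 divided by Cy3) for which the software had subtracted background and normalized the dyes. The deposited value table repeats that log10 ratio (largest difference 0 over 39102 spots), not turned for the dye swap. No genome build is named for the probes, so no coordinates are printed, and no sequences were used.

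Intensities were corrected with normexp (offset 50), normalized within arrays by loess (control and outlier spots at weight 0) and turned to sgr1 over wild type in limma 3.58.1 under R 4.3.3. Outlier spots (96 on array 1, 177 on array 2) and 11251 spots without a locus were left out. Probes with at least 1 channel well above background on each array were kept, and probes of a gene averaged. Ratios were tested against 0 with lmFit and eBayes (two-sided, Benjamini-Hochberg over 19059 genes, threshold 0.05, 1 residual and 47.7 prior degrees of freedom). The procedure was tested on simulated data, without the background correction and with equal noise for all spots. That is a simpler setting than these arrays. Signals by genotype are from the same values after Aquantile normalization between arrays.

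The members and lists were chosen with earlier results of these data known. Named were the 10 genes, the called genes of each other list (the 6 largest changes where over 6 were called), close paralogs, the group VII ERFs, the PCO genes and SCR. The low oxygen response, sensing and glycolysis lists share PCO1, PCO2, HRE1, HRE2 and PFK6. Symbols came from the TAIR10.1 table, which held all 10 loci, or from the lists. P-values rest only on the spread between these arrays. That spread is drawn mostly from all genes (47.7 prior degrees of freedom) and little from a gene's own ratios (1 residual). Alternatives covered background correction (offset 16 or none), normalization (median centring, scale, Aquantile, scanner log ratios), the filter on dim probes, the variance model and each array alone.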

Additional observations from a re-analysis of the deposited data

How the results depend on the processing

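Each of the 10 genes kept the sign of its ratio under all 8 alternative settings of background, normalization and filter. Aquantile and the filter settings leave the ratio of a gene with 1 spot unchanged, so there the sign was fixed in advance. Scaling between arrays cannot turn a ratio that has the same sign on both arrays. On single arrays, which carry no test, only ALAAT1 changed sign. Median centring in place of loess left 2 genes called of 19059, 1 called gene in the low oxygen response list, 0 in the 6 other lists together and 1 of the 10 genes past 2-fold on each array, against 3602, 20, 15 and 3 in the values reported. The median of the low oxygen response list was -0.47 there, against -0.39. Log ratios of the scanner software left 1952 genes called and 9 in the 6 other lists, with a median of -0.48 in the low oxygen response list. That median was -0.49 with normexp offset 16 and -0.28 without the filter on dim probes. The cause of these shifts was not tested. PDC1, the dimmest of the 10 genes relative to background, ran from -2.32 to -1.29 over the settings. The test is paired by construction, since each ratio sets both genotypes on 1 array against each other, and no further block was fitted.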

Other observations

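Further genes of the low oxygen response list, named here after their values were seen, also fell. ACO1, an enzyme of ethylene synthesis, was 1.59-fold lower in sgr1 (-0.71 and -0.62 on arrays 1 and 2, limma adjusted p = 0.000296), and the ethylene receptor gene ETR2 was 1.57-fold lower (-0.82 and -0.49, limma adjusted p = 0.000465). Others were AT4G10270, described in the array file as a wound-responsive family protein (2.46-fold), AT3G27220, a kelch repeat protein (2.26-fold), the F-box gene PP2-A13 (2.14-fold) and AT4G24110 (2.09-fold). The ratios of AT4G24110 (-1.89 to -1.05) and ACO1 (-1.22 to -0.67) moved with the processing. Genes of the list that did not pass included RBOHD (-0.35), an oxidase that makes superoxide, JAZ3 (-0.10) and PFK6 (-0.37).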
